A study of Mus musculus with 298 samples.

Results

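The step examined here is the later part of BCR-ABL induction, from week 3 to week 6, in the blood of mice with an inducible human BCR-ABL transgene. It comprises 40 of the 298 libraries of the series: 1 library at week 6 and 1 at week 3 from each of 20 mice. All 20 mice were C57BL/6, carried the tTA+/- and BCR-ABL+/- alleles, and were 6 to 8 weeks old when they entered the study. In the 17 Tet-off mice (10 female, 7 male) tetracycline had been withdrawn, which switches BCR-ABL on. They comprised 6 CML mice, 4 TOTO mice whose tetracycline was restored after 6 weeks, and 7 TKI mice given nilotinib at 50 mg/kg, an inhibitor of the BCR-ABL kinase, after 6 weeks. Neither intervention had begun at week 3, and the sources used here do not say whether the week 6 blood was drawn before them. The 3 control mice (2 female, 1 male) carried the same alleles and stayed on tetracycline water at 0.5 g/L.

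The tTA activator is driven by SCL elements, which are active in blood stem and progenitor cells, so that the model switches the oncogene on in those cells and their progeny. BCR-ABL is the fusion kinase that causes chronic myeloid leukaemia. Its constant signalling drives overproduction of granulocytes, and expansion of basophils is a known companion of the disease in patients. Maturing neutrophils load their secondary granules with antimicrobial proteins late in marrow development, under the transcription factor C/EBP epsilon.

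The labels name mononuclear cells as the tissue, but RNA was extracted from whole blood, and the libraries held red cell and neutrophil transcripts in quantity. Haemoglobin genes made up a median of 44.2% of TPM (the deposited unit, a length-normalised abundance with a fixed sum per library) in the 40 libraries, between 13.7 and 71.4%. The number of genes at 1 TPM or more ran from 6127 (TKI mouse 513, week 3) to 11996. Changes are given as week 6 minus week 3 within a mouse on the scale of log2(TPM + 1), which understates changes of genes near 1 TPM. Because the haemoglobin share moved between the weeks, each change is also given after rescaling every library by a median-ratio size factor, called rescaled below. In bulk blood, more cells of a type and more RNA per cell cannot be told apart.

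Both scales found a later rise of the transgene, of neutrophil granule genes and of 2 basophil proteases in Tet-off mice. Rescaled values also showed falls of B cell genes. The difference from the 3 control mice passed the test for no gene on either scale. Promoter sequences of 3 granule genes and the 2 basophil protease genes that rose are shown because the data turn on these genes. They are the 250 bases before the RefSeq start in build GRCm38.p6, 5′ to 3′ on the gene's strand, at chr9:110419558-110419807 (plus strand) for Ngp, chr9:111019042-111019291 (plus) for Ltf, chr9:109849457-109849706 (minus) for Camp, chr14:56085198-56085447 (minus) for Mcpt8 and chr17:25298144-25298393 (plus) for Prss34. Capitals mark the C/EBP letters TTNNGCAA on either strand in Ngp, Ltf and Camp, and the GATA letters AGATAA on either strand in Mcpt8 and Prss34.
Ngp: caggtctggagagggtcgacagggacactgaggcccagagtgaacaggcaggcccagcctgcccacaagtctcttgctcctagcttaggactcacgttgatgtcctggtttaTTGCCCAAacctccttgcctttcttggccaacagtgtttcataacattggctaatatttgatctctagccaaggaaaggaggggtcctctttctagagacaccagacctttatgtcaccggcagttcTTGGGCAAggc
Ltf: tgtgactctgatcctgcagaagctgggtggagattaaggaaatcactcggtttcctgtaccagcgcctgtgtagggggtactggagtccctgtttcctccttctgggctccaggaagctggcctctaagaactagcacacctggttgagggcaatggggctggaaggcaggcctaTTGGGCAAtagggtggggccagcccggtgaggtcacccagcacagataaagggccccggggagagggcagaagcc
Camp: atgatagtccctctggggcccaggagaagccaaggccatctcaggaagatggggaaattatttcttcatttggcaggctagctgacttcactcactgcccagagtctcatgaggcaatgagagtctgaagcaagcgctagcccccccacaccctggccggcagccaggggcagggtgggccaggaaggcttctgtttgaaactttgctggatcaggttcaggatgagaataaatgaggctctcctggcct
Mcpt8: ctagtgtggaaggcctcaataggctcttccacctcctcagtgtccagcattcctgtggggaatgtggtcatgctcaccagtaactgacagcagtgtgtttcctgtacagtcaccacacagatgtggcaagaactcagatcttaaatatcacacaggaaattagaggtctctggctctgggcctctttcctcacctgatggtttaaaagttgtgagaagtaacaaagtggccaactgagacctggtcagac
Prss34: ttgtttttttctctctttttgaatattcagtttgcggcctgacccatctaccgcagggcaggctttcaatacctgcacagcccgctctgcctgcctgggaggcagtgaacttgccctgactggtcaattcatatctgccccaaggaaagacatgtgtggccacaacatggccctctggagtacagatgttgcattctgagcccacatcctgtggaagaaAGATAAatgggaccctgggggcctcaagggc

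Ngp held 2 such C/EBP matches, 138 and 11 bases before the start, and Ltf held 1 at 75 bases. Camp held none. In Prss34 the single GATA match began 31 bases before the start, and Mcpt8 held none. TTNNGCAA stood before 10.8% of the 27025 genes in the sequence table and before 8 of the 17 secondary granule genes matched in it. AGATAA stood before 11.4% of all genes and before 5 of 15 matched basophil and mast cell genes. Each motif was also found in the other list: TTNNGCAA before 4 of the 15, and AGATAA before 3 of the 17. Ltf held an AGATAA match 32 bases before its start, not marked above. A match of letters is a description and not a binding site.

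The transgene was examined first, as a check of the labels. The row for human BCR-ABL1 had a lowest, median and highest value of 0, 5.92 and 36.04 TPM in Tet-off mice at week 6, against 0, 1.22 and 5.36 TPM at week 3. It was listed at 0 in 1 Tet-off library at week 6 and in 6 at week 3. In control mice all 3 week 6 libraries were at 0, and week 3 gave 0.588 TPM in mouse 488 and 0 in mice 489 and 490. The highest values were thus all in Tet-off mice at week 6, and 14 of the 17 rose.
The 3 that did not were CML mouse 487, at 0 in both weeks and in 16 of its 19 libraries of the series, CML mouse 484 (0.358 TPM at week 6 and 1.58 TPM at week 3) and TOTO mouse 476 (1.54 and 2.04 TPM). The mean change was 1.69 ± 0.26 in Tet-off mice on the log2 scale (SE, adjusted p = 0.000697 by limma with Benjamini-Hochberg adjustment over 10145 genes). Mean changes of 1.69 in Tet-off mice and -0.22 in control mice differed by 1.91 in an exact two-sided permutation of mouse labels (p = 0.0237, smallest p possible 0.000877). Leaving out control mouse 488 gave 1.69 with an exact permutation p of 0.105, and leaving out mouse 489 or 490 gave 2.02 with an exact permutation p of 0.0526. On rescaled values the difference was 1.90 (exact permutation p = 0.00526).

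The level of human BCR-ABL1 by cohort was as follows. At week 6 the 7 TKI mice ranged from 4.58 to 36.04 TPM with a median of 11.2, against 0, 1.22 and 2.80 TPM (lowest, median, highest) at week 3. TOTO mice had 1.54, 6.37, 16.0 and 4.91 TPM at week 6, against 2.04, 2.10, 5.36 and 0.752 TPM at week 3 in mice 476, 482, 483 and 545. CML mice ranged from 0 to 10.6 TPM at week 6 with a median of 1.40, against 0 to 1.90 TPM with a median of 0.184 at week 3. The rows named human ABL1 and human BCR rose as well (1.55 ± 0.23 and 1.24 ± 0.19, SE), but share sequence with the fusion and are not separate evidence. Mouse Bcr and Abl1 did not pass, with 0.14 and -0.03 as deposited and 0.09 and -0.04 rescaled.

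Between the 2 weeks the Tet-off medians of human BCR-ABL1 were 1.22, 1.62, 3.73 and 5.92 TPM at weeks 3, 4, 5 and 6. Those of Ngp were 60.9, 135, 266 and 295 TPM, and those of Mcpt8 were 1.79, 5.23, 6.68 and 9.22 TPM. The median was thus higher at each later week in all 3 genes, while no control library of weeks 3 to 6 exceeded 0.588 TPM for human BCR-ABL1, 1.84 TPM for Ngp or 0.833 TPM for Mcpt8. The Tet-off median of Fcer2a, a B cell gene, was 20.7, 15.2, 12.5 and 11.4 TPM at the same weeks.

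**Figure D1:**
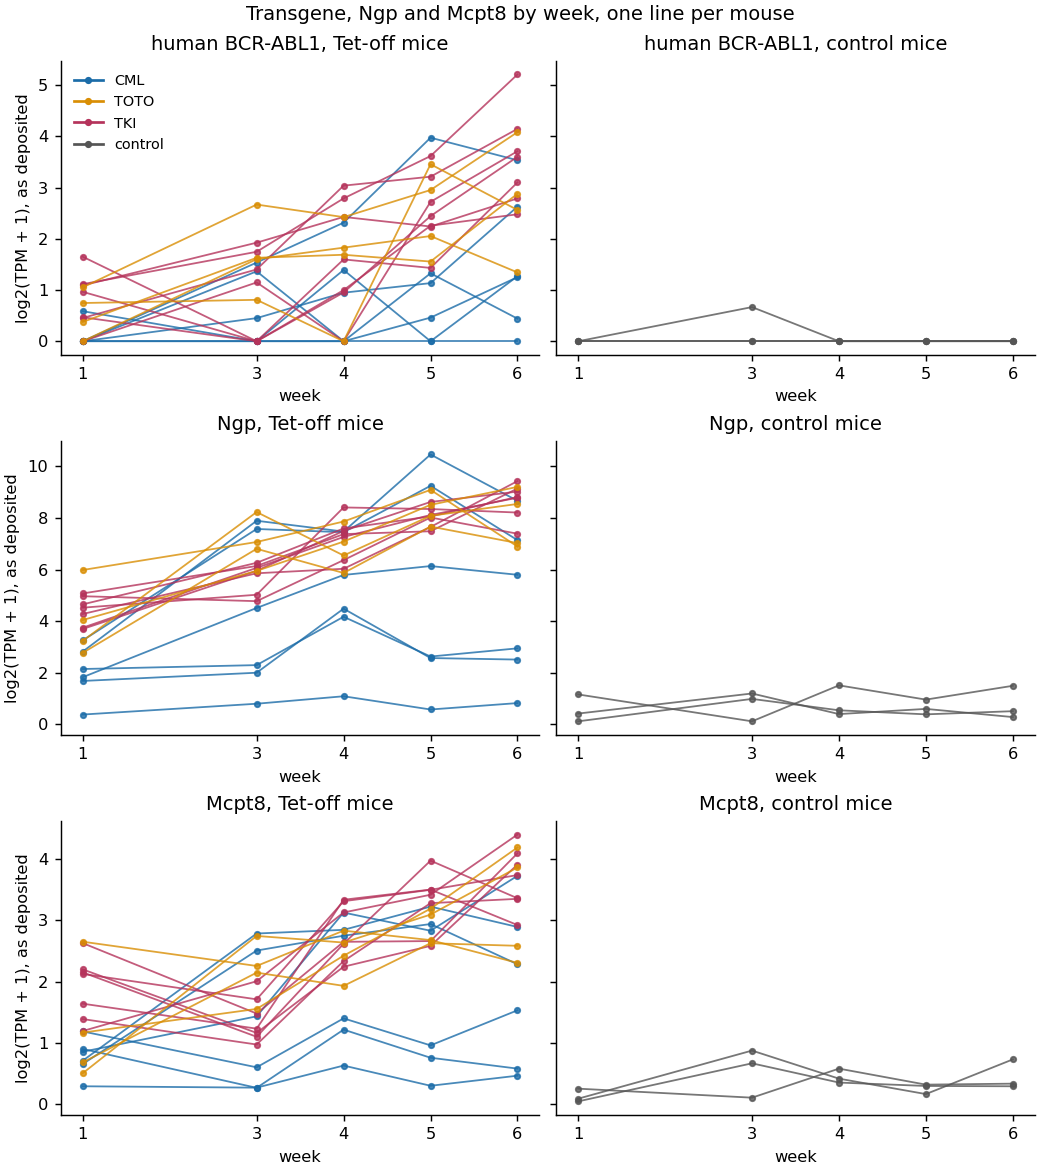
Values of human BCR-ABL1, Ngp and Mcpt8 as log2(TPM + 1) (vertical axes) at weeks 1, 3, 4, 5 and 6 (horizontal axes), 1 line per mouse, with the 17 Tet-off mice on the left and the 3 control mice on the right. At week 6 most Tet-off lines lie above every control line in all 3 genes, while the lowest CML lines stay near them.

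As deposited, 455 of 10145 genes had an unadjusted p under 0.05 in Tet-off mice. That is fewer than the cut alone would give if none had changed. After adjustment 16 passed (0.158% of those tested), all of them higher. The count was 57 without CML mouse 484, 25 without TOTO mouse 476 and 26 without control mouse 490. Of the 16, 3 were the human rows, 6 were neutrophil genes (Ngp, Ltf, Camp, Ly6g, Cd177 and Olfm4) and 2 encode basophil proteases (Mcpt8 and Prss34). The other 5 were Ighg1, Akr1c18, Cyp11a1, Upp1 and Retnla. With 1 mouse left out, Olfm4 lost the threshold in 11 of 20 cases (CML 477, TOTO 482 or 545, control 489 or any TKI mouse, adjusted p up to 0.166). Upp1 also lost it in 11 (CML 480, TOTO 482 or 545, control 489 or any TKI mouse, up to 0.169). Cyp11a1 lost it in 9 (CML 480, TOTO 545 or any TKI mouse, up to 0.118), and Retnla in 5 (TOTO 545 or TKI 502, 507, 508 or 511, up to 0.0574). Rescaled, 3920 genes passed (38.6%), 2071 higher (20.4%) and 1849 lower (18.2%), and all 16 were among them. The median change of all genes tested was 0.03 as deposited and 0.02 rescaled.
Single genes were named by a rule on size, mean level and list membership. Ighg1, Cyp11a1, Retnla, Olfm4, Cybb, Lyz2, Pou2f2, Igkc, Cpa3, Ms4a2, Fcer1a, Zbtb32 and Gm23057 lie outside that rule and were named after their values were seen.

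Ngp, a granule protein of the cathelicidin family, had a lowest, median and highest value of 0.762, 295 and 689 TPM in Tet-off mice at week 6, against 0.732, 60.9 and 299 TPM at week 3. Control mice 488, 489 and 490 had 0.210, 0.417 and 1.81 TPM at week 6, against 1.28, 0.972 and 0.0791 TPM at week 3. Levels of most Tet-off mice thus stood far above the controls at both weeks, and CML mouse 487, the lowest Tet-off mouse at both weeks, overlapped with them. The change of Ngp was 1.60 as deposited (adjusted p = 0.00689) and 1.58 ± 0.21 rescaled (SE, adjusted p = 2.68e-05), higher in 15 of 17 mice on both scales.
Ltf encodes lactoferrin, an iron-binding granule protein. It had 3.10, 96.9 and 336 TPM (lowest, median, highest) in Tet-off mice at week 6, against 0.893, 31.2 and 121 TPM at week 3. Controls had 3.03, 2.82 and 2.36 TPM at week 6 and 4.26, 2.72 and 0.477 TPM at week 3 in mice 488, 489 and 490. Rescaled it rose in 17 of 17 Tet-off mice, by 1.56 ± 0.17 (SE, adjusted p = 5.18e-06), and its rescaled change in controls was 0.69, with all 3 mice above 0.
Camp, the cathelicidin precursor, had 0.111, 54.2 and 144 TPM in Tet-off mice at week 6, against 0.129, 14.3 and 58.8 TPM at week 3. In controls no value exceeded 0.338 TPM at either week. The rescaled change was 1.44 ± 0.18 (SE, adjusted p = 1.39e-05), and that of 16 of 17 Tet-off mice exceeded every control change. Camp was thus not among the 0.306% of all genes whose changes lay wholly above those of controls. In build GRCm39 the 3 protein-coding genes lie at chr9:110248815-110252086 (Ngp, plus strand), chr9:110848339-110871835 (Ltf, plus strand) and chr9:109676442-109678685 (Camp, minus strand).

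Ly6g, the surface marker of mouse neutrophils, stood at a median of 22.4 TPM at week 6, against 4.79 TPM at week 3. Cd177, a neutrophil adhesion protein, stood at 45.8 TPM, against 12.2 TPM. Their rescaled changes were 1.47 ± 0.18 and 1.33 ± 0.15 (SE), higher in 16 of 17 mice each. As deposited, Cd177 had an adjusted p of 0.0398, which lost the threshold when any 1 of 9 mice was left out (CML 487, TOTO 545 and each of the 7 TKI mice), with up to 0.143.
The 19 tested members of the secondary granule list had 5 calls as deposited, all higher, and 19 calls rescaled, all higher, beside 20.4% of all genes. Their median rescaled change was 0.95 in Tet-off mice, against 0.03 in control mice. The smallest were Lyz2, a lysozyme, with 0.42 ± 0.08, and Cybb, the NADPH oxidase subunit, with 0.42 ± 0.08 (SE). Lcn2, which binds bacterial siderophores, changed by 1.35 ± 0.19 and the collagenase Mmp8 by 1.25 ± 0.20 (SE, rescaled). Every one of the 17 Tet-off mice had a positive list mean, from 0.11 to 1.69, while the control means were -0.47, -0.29 and 0.88 in mice 488, 489 and 490. The groups overlapped, because control mouse 490 exceeded several Tet-off mice.

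Mature neutrophil genes moved with them. Of 22 tested, 21 passed rescaled, all higher, beside 20.4% of all genes, with a median of 0.81 in Tet-off mice, against 0.00 in control mice. The list mean ran from 0.15 to 1.57 over Tet-off mice and from -0.63 to 1.10 over control mice, so the groups overlapped. S100a9, a calprotectin subunit and among the most abundant neutrophil transcripts, had 346, 3778 and 11750 TPM (lowest, median, highest) in Tet-off mice at week 6, against 123, 1510 and 6729 TPM at week 3. It rose in 17 of 17 mice rescaled (1.19 ± 0.16, SE, adjusted p = 3.09e-05) and did not pass as deposited (1.23, adjusted p = 0.111). Retnlg, a resistin-like secreted protein, changed by 1.33 ± 0.20 (SE) rescaled. All 7 tested stefin A genes, cysteine protease inhibitors of neutrophils, passed higher (median 0.72 in Tet-off mice, 0.10 in control mice), but these copies are near-identical and their separate values are uncertain. Of the primary granule list, whose genes are made earlier in marrow development, 3 of 6 tested genes passed higher (median 0.29 in Tet-off mice, 0.05 in control mice), among them Prtn3, proteinase 3, with 0.71 ± 0.08 (SE). Mpo, myeloperoxidase, and Elane, neutrophil elastase, averaged 0.399 and 0.690 TPM and were below the mean of 1 TPM needed for the test.
Spi1 and Cebpb, transcription factors of the myeloid lineage, rose by 0.57 ± 0.09 and 0.81 ± 0.13, and Cebpe by 0.59 ± 0.11 (SE, rescaled). In all, 7 of the 11 tested genes on that list of factors passed higher and 2 lower, beside 20.4% and 18.2% of all genes.

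Basophil genes were fewer and lower in level. Mcpt8, a serine protease made by mouse basophils, had 0.379, 9.22 and 20.2 TPM (lowest, median, highest) in Tet-off mice at week 6, against 0.202, 1.79 and 5.90 TPM at week 3. Controls had 0.224, 0.659 and 0.260 TPM at week 6 and 0.587, 0.833 and 0.0754 TPM at week 3 in mice 488, 489 and 490. The change was 1.41 as deposited (adjusted p = 0.00169, higher in 16 of 17 mice) and 1.45 ± 0.15 rescaled (SE, adjusted p = 4.15e-06, higher in 17 of 17).
Prss34, a tryptase-like protease of basophils and mast cells, had 0.268, 5.81 and 11.3 TPM in Tet-off mice at week 6, against 0.101, 1.40 and 4.34 TPM at week 3. Controls had 0.238, 0.201 and 0.306 TPM at week 6 and 0.384, 0.574 and 0.190 TPM at week 3. Its rescaled change of 1.21 ± 0.11 (SE, adjusted p = 1.99e-06) was positive in all 17 Tet-off mice, each above every control mouse. In build GRCm39 Mcpt8 lies at chr14:56319623-56322730 (minus strand) and Prss34 at chr17:25517368-25519142 (plus strand). Among all genes, 0.306% had rescaled changes in Tet-off mice wholly above those of controls.
Of the 10 tested genes on the basophil and mast cell list, 7 passed higher rescaled and none lower, beside 20.4% of all genes higher, with a median of 0.41 in Tet-off mice, against 0.18 in control mice. Ifitm1 (1.07 ± 0.12) and Hdc, the histamine-forming enzyme (0.82 ± 0.15, SE), were among the 7, but neutrophils express Hdc as well, and the list shares Itga2b with platelets. Cpa3, Ms4a2 and Fcer1a, which define the lineage more closely, lay below the mean of 1 TPM needed for the test. Their medians in Tet-off mice were 1.20, 0.916 and 1.33 TPM at week 6, against 0.236, 0.274 and 0.336 TPM at week 3. With no filter, 13 of 17 genes of that list passed higher and none lower. The 20.4% above is a share of filtered genes and does not apply to this count.
Akr1c18, a steroid reductase, and Cyp11a1, the side-chain cleavage enzyme of steroid synthesis, rose by 0.96 and 0.71 as deposited (adjusted p = 0.00355 and 0.0343), and Cyp11a1 lost the threshold without any 1 of the 9 mice named for it above, with up to 0.118. Retnla, a resistin-like protein, was listed at 0 in all 6 control libraries of the step and had medians of 1.99 TPM at week 6 and 0.393 TPM at week 3 in Tet-off mice.

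**Figure D2:**
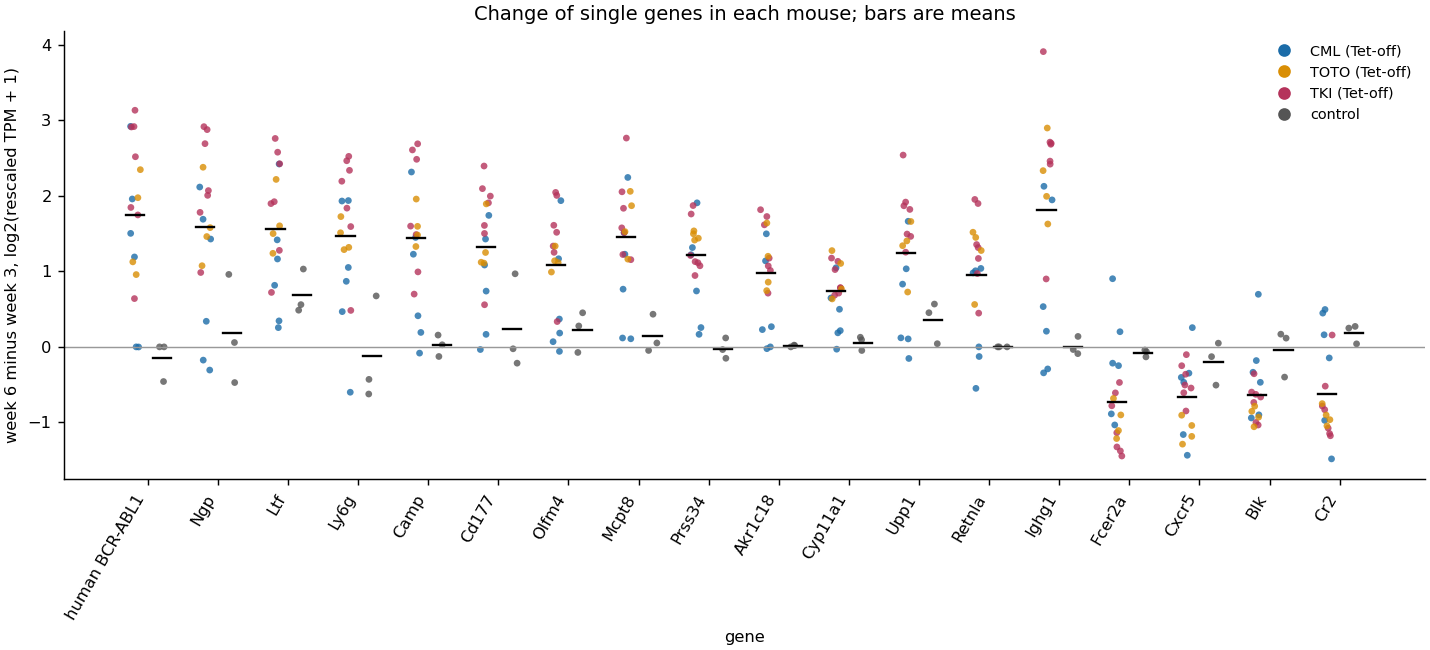
Rescaled change, week 6 minus week 3 in log2(rescaled TPM + 1) (vertical axis), of 18 genes (horizontal axis) in each mouse, with Tet-off mice left of control mice and bars at the means. Prss34 is above every control in all 17 Tet-off mice, and Fcer2a, Cxcr5, Blk and Cr2 lie mostly below 0 in Tet-off mice.

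The B cell list went the other way, on rescaled values. Of its 22 tested genes, 20 passed lower and none higher, beside 18.2% of all genes, and their median was -0.38 in Tet-off mice, against -0.02 in control mice. The list mean was -0.62 ± 0.08 in TOTO mice (SD, n = 4), -0.46 ± 0.23 in TKI mice (n = 7) and -0.18 ± 0.55 in CML mice (n = 6), and the 3 Tet-off mice above 0 were CML mice 480, 487 and 541. As deposited none of the 22 passed, and the median was -0.34 in Tet-off mice against -0.41 in control mice. The lower change in Tet-off mice than in controls was thus seen on rescaled values only. Fcer2a, the low-affinity IgE receptor of mature B cells, had 4.88, 11.4 and 52.7 TPM (lowest, median, highest) in Tet-off mice at week 6, against 6.11, 20.7 and 48.2 TPM at week 3. Control mice 488, 489 and 490 had 40.1, 27.6 and 72.3 TPM at week 6, against 97.1, 73.6 and 30.1 TPM at week 3. Rescaled, Fcer2a fell by 0.72 ± 0.13 (SE, adjusted p = 0.000337) in Tet-off mice with 15 of 17 below every control mouse, and changed by a mean of -0.08 in control mice. Among all genes, 0.207% had rescaled changes wholly below those of controls. Fcer2a was not among them, because it rose in 2 Tet-off mice. The share of all genes with 15 of 17 mice below every control is not given.
Blk, a kinase of B cell receptor signalling, changed by -0.63 ± 0.10, the complement receptor Cr2 by -0.62 ± 0.13 and the homing receptor Cxcr5 by -0.66 ± 0.10 (SE, rescaled). Each was lower in 13 to 16 of 17 mice. Ighd and Vpreb3 were the 2 that did not pass. Immunoglobulin light chain genes Iglc1 (-0.68 ± 0.14), Iglc2 (-0.62 ± 0.15) and Igkc (-0.41 ± 0.10) fell, though Iglc1 and Iglc2 are near-identical. The class II transactivator Ciita fell by 0.34 ± 0.08 (SE), 1 of 4 of the 11 MHC class II genes tested that passed lower.
Ighg1, the constant region of IgG1, went against these. Its medians were 5.66 TPM at week 6 and 0.439 TPM at week 3 in Tet-off mice, and controls had 0.144, 0.379 and 0.0532 TPM at week 6, against 0.381, 0.739 and 0.0573 TPM at week 3. It rose by 1.70 as deposited (adjusted p = 0.000816) and by 1.81 ± 0.26 rescaled (SE).

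Of the other rescaled falls that the naming rule gives, Erdr1y (-0.95 ± 0.11) and Erdr1x (-0.85 ± 0.11, SE) headed the list, but they are near-identical copies. The rule also named Pgap1, Iglv2, H2-Q5, Mndal and Iglv1, between -0.77 and -0.68. Among the rises it named Cd14, the co-receptor for lipopolysaccharide (1.29 ± 0.15, SE). The counts that follow stand beside 20.4% of all genes higher and 18.2% lower, rescaled. Monocyte genes passed higher in 10 of 19 and lower in 1 (Pou2f2), with a median of 0.26 in Tet-off mice and 0.15 in control mice. The interleukin 1 list had 8 of 15 higher and none lower, with Il1rn, the receptor antagonist, at 0.91 ± 0.14, and the glycolysis list 13 of 20 higher and 1 lower, with the hexokinase Hk3 at 0.68 ± 0.11 (SE).
Calls on T cell genes were 4 lower of 23, near the share of all genes, and their median of -0.15 in Tet-off mice was no lower than the -0.26 of control mice. NK cell genes had 1 higher and 4 lower of 17. No platelet gene of 21 and no haemoglobin gene of 6 passed. Of 18 immediate early genes 9 passed higher and 3 lower, with Fos at 0.76 ± 0.13, and of 13 STAT5 targets 4 passed higher and 3 lower, with Osm at 0.85 ± 0.11 and Myc at -0.44 ± 0.08 (SE). Both STAT5 counts lie near the shares of all genes. The interferon list had 5 higher and 1 lower of 18, with a median of 0.06 in Tet-off mice and 0.14 in control mice, the BCL2 family 8 and 1 of 15, nuclear oxidative phosphorylation 8 and 0 of 25, and ribosomal proteins 4 and 2 of 77.

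**Figure D3:**
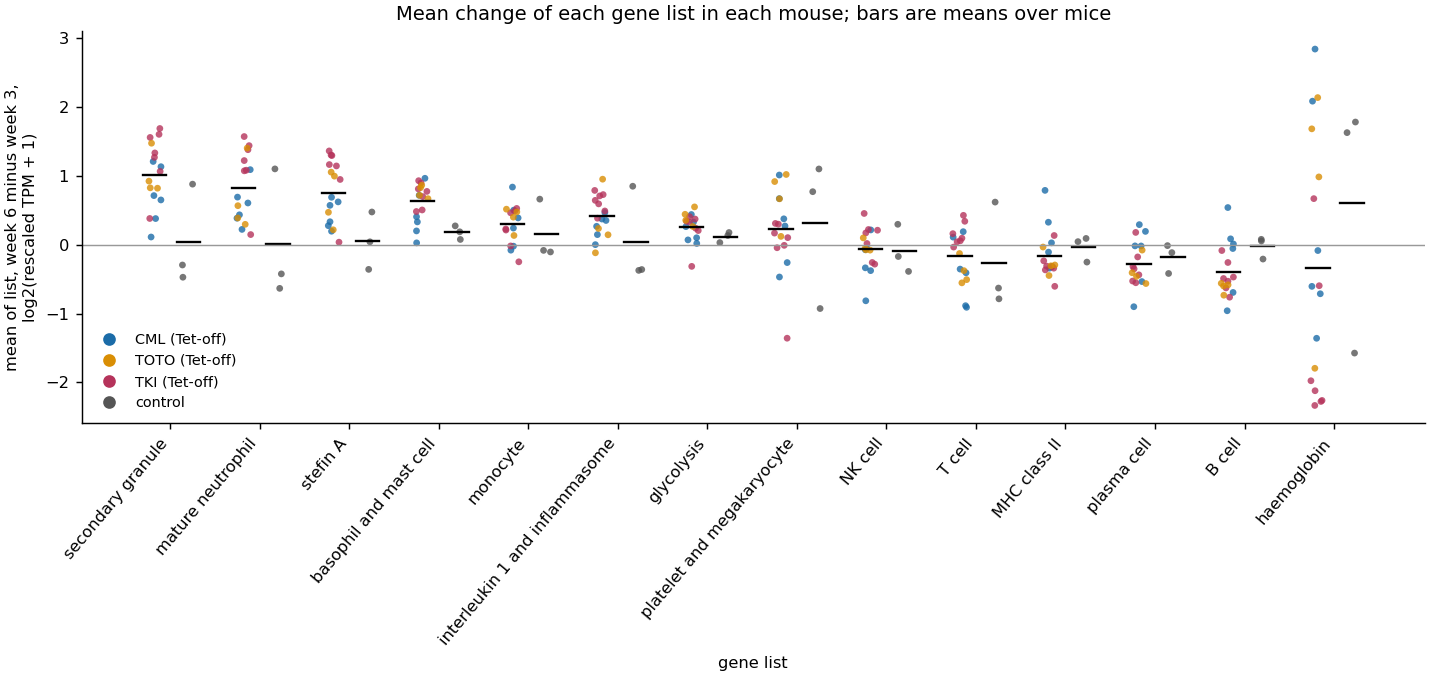
Mean rescaled change of each gene list, week 6 minus week 3 in log2(rescaled TPM + 1) (vertical axis), in each mouse for 14 lists (horizontal axis), with Tet-off mice left of control mice and bars at the means over mice. Secondary granule means were above 0 in all 17 Tet-off mice, and B cell means were above 0 in 3 of them.

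Control mice stand for what also moved without induction, but 3 mice are too few for an absence of calls to show that nothing moved. No gene passed in the 3 controls by limma on either scale, with 21 genes at an unadjusted p under 0.05 as deposited and 185 rescaled. Both counts are fewer than the cut alone would give over 10145 genes if none had changed. The difference between Tet-off and control changes passed for no gene either. It had 35 genes at an unadjusted p under 0.05 as deposited, again fewer than the cut alone would give, and 1052 rescaled, which is more. Leaving out control mouse 490 gave 92 genes rescaled, 84 of them higher. As deposited that mouse moved unlike the other 2 controls: its all-gene median changed by 1.04, against -0.96 in mouse 488 and -1.09 in mouse 489. Rescaled, the all-gene means of the 3 mice lay between -0.04 and 0.05. The rescaled secondary granule mean was 0.88 in mouse 490, against -0.47 in mouse 488 and -0.29 in mouse 489. Whether the 92 genes follow from this was not tested.
For the transgene the rescaled difference was 1.90 ± 0.55, for Prss34 1.23 ± 0.27 and for Camp 1.42 ± 0.46 (SE, adjusted p = 0.375 each by limma). None of these passed. The 6 smallest p by the naming rule on rescaled values belonged to Ear2 (1.06 ± 0.22, SE), Tnfaip8l2, Marcksl1, Med12, Antkmt and Erdr1y. Ear2, a ribonuclease of myeloid cells, was higher in 17 of 17 Tet-off mice, each above every control. As deposited the 6 were Rn7s2, human ABL1, Retnlg, Ly6g, S100a9 and Apol11b, and none passed.

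Sequencing batch, as the labels name it, was not balanced over the groups. Batch 2022_A held 10 Tet-off mice and 1 control, 2021_E held 2 and 2, and 2022_B held 5 Tet-off mice and no control. The secondary granule list changed by a mean of 1.20 in Tet-off mice and -0.47 in the control mouse of 2022_A, and by 0.38 in Tet-off mice and 0.29 in control mice of 2021_E. In 2022_B the Tet-off mean was 0.89. For the transgene the rescaled means were 2.00 and -0.46 in 2022_A, 1.73 and 0.00 in 2021_E, and 1.24 in Tet-off mice of 2022_B. Mcpt8 gave 1.75 and -0.05 in 2022_A, 1.18 and 0.24 in 2021_E, and 0.97 in Tet-off mice of 2022_B.
B cell genes changed by -0.62 in Tet-off mice and 0.08 in the control mouse of 2022_A, and by 0.05 in Tet-off mice and -0.08 in control mice of 2021_E. The granule difference was thus small, and the B cell difference not in the same direction, in the only batch with more than 1 control.

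The haemoglobin share moved with the deposited values. It changed by a mean of -20.9 ± 14.4 percentage points in TKI mice (SD, n = 7), and changed by 3.67 ± 18.8 points in TOTO mice (n = 4), 1.28 ± 14.6 points in CML mice (n = 6) and 10.9 ± 17.6 points in control mice (n = 3). Over the 17 Tet-off mice its change ran against the all-gene median change (Pearson r = -0.943, Spearman rho = -0.897, permutation p = 1e-05 for both, the smallest possible, adjusted p = 4e-05 over 4 relations). Without the 2 most extreme mice r was -0.959, and within the 10 mice of 2022_A it was -0.966. Both values are parts of 1 fixed TPM sum.

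**Figure D4:**
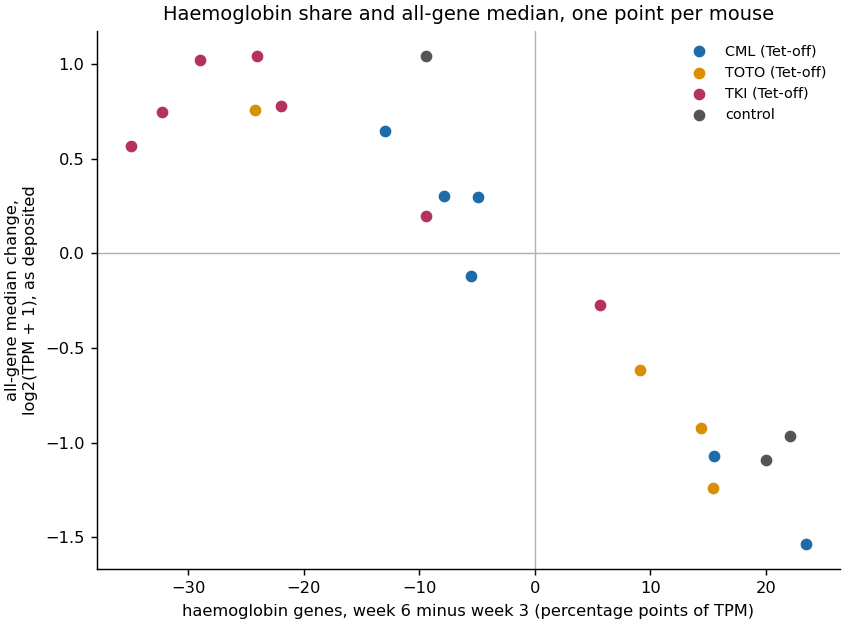
All-gene median change, week 6 minus week 3 in log2(TPM + 1) as deposited (vertical axis), against the change of the haemoglobin share in percentage points of TPM (horizontal axis), 1 point per mouse coloured by cohort. TKI mice lie mostly at falling haemoglobin share and rising median, and 2 of 3 control mice at the opposite end.

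Whether genes followed the transgene from mouse to mouse was tested as a slope on its change. As deposited 8208 of 10144 genes passed (80.9%), 8193 higher (80.8%) and 15 lower, with human ABL1, Akr1c18, human BCR, Arg1, Mcpt8 and Spp1 at the smallest p among rises, and haemoglobin genes such as Hbb-bs and Hba-a2 among the falls. Rescaled, none passed by limma, with 472 at an unadjusted p under 0.05, fewer than that cut alone would give over 10144 genes. The deposited count was 0 without CML mouse 484 and 1 without TOTO mouse 476, 2 mice in which the transgene and the all-gene median both fell. It was 5441 without TKI mouse 502. The transgene change correlated with the all-gene median change (Pearson r = 0.592, Spearman rho = 0.566, permutation p = 0.0134 and 0.0199, adjusted p = 0.0267 and 0.0398), at r = 0.279 without the 2 mice most extreme in the transgene, so the relation rested on those mice. Within the 10 mice of 2022_A r was 0.776. On rescaled values the transgene change correlated with that of Ngp at r = 0.375 (permutation p and adjusted p = 0.136, rho = 0.311, p = 0.222, r = 0.245 without the 2 extreme mice and 0.449 in 2022_A) and with that of Mcpt8 at r = 0.473 (permutation p = 0.0559, adjusted p = 0.0745, rho = 0.336, p = 0.188, r = 0.377 without the 2 extreme mice and 0.371 in 2022_A). The other 2 batches hold 2 and 5 Tet-off mice, too few for a value.

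The later step was then set against the earlier one, week 3 minus week 1, in the same mice. Both steps use the week 3 library. As deposited 2 of 9985 genes passed, both lower (0.02%): Zbtb32, a transcription factor of activated lymphocytes, at -1.90 (adjusted p = 0.0235), and the gene model Gm23057. Neither passed without CML mouse 477, 480, 484 or 542, TKI mouse 507, 511, 512 or 514, or TOTO mouse 476 or 482, and 1 passed without TKI mouse 508 or TOTO mouse 483. The median shifted by -0.18. Rescaled, 2455 genes passed (24.6%), 1466 higher (14.7%) and 989 lower (9.9%).
The transgene changed by 1.75 later and 0.35 earlier on rescaled values (difference 1.40, adjusted p = 0.00737), and mouse Bcr passed as well (0.79, adjusted p = 0.00786).
Granule genes had positive mean changes in both steps, but the course was not steady. The secondary granule list had Tet-off means of 3.90, 4.99, 4.71 and 5.72 in log2(rescaled TPM + 1) at weeks 1, 2, 3 and 6. The mature neutrophil list had 4.44, 5.53, 4.94 and 5.77. In both lists week 3 was thus lower than week 2. The secondary granule list changed by 1.01 ± 0.46 in the later step and 0.81 ± 0.53 in the earlier step (mean over 17 Tet-off mice ± SD), against 0.04 ± 0.73 later and 0.37 ± 0.25 earlier in the 3 control mice, all 3 of which were above 0 in the earlier step. In Tet-off mice 4 of 19 genes passed higher in the difference, beside 14.7% of all genes. Ngp changed by 1.58 later and 1.84 earlier, a difference of -0.25 that did not pass.
The basophil proteases differed between the steps. Mcpt8 changed by 1.45 later and 0.06 earlier (difference 1.39, adjusted p = 0.000542), and Prss34 by 1.21 later and -0.01 earlier (difference 1.22, adjusted p = 0.000118, both rescaled). With the earlier step taken from week 0, the difference for Mcpt8 was 0.17 (adjusted p = 0.576).
B cell genes changed by -0.40 ± 0.38 later and 0.10 ± 0.21 earlier (mean ± SD). In the difference 16 of 22 passed lower, beside 9.9% of all genes. Control mice had -0.02 ± 0.16 later and 0.18 ± 0.29 earlier. With the earlier step taken from week 0, the Fcer2a difference turned from lower to 0.35 (adjusted p = 0.0901). Blk, with -0.63 later and 0.40 earlier, gave a difference of -1.03 (adjusted p = 0.000102). Ccr6, Fgd2, Rnu11, Myc and Erdr1x were the other falls that the rule names.
Platelet genes changed by 0.22 ± 0.59 later and -0.97 ± 0.85 earlier. In the difference 15 of 21 passed higher, beside 14.7% of all genes. The 3 control mice had a like pattern, 0.32 ± 1.09 later and -0.71 ± 2.02 earlier, and the difference between the groups was not tested. Selp, an adhesion receptor of platelet granules, was among the rises named with Ctla2b, Sytl4, Slc6a4, P2ry12 and H2bc4. Its median in Tet-off mice was 41.0 TPM at week 1, 20.02 TPM at week 3 and 21.5 TPM at week 6. With the earlier step taken from week 0, its difference turned to -1.63 (adjusted p = 0.00275).

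**Figure D5:**
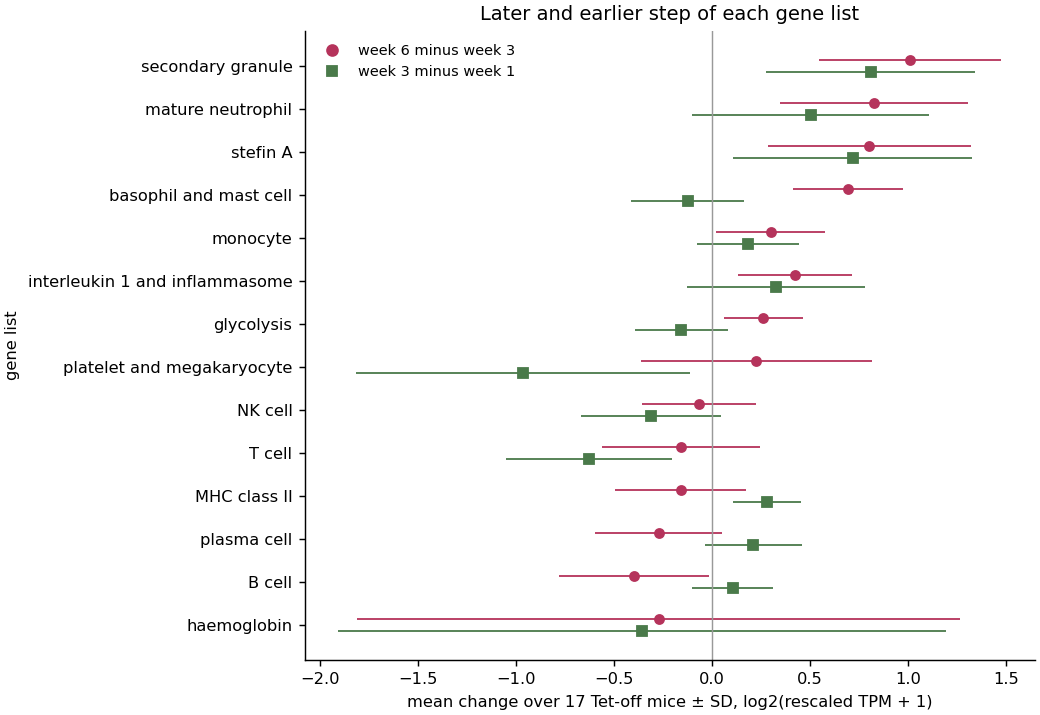
Mean rescaled change over the 17 Tet-off mice ± SD in log2(rescaled TPM + 1) (horizontal axis) of 14 gene lists (vertical axis), for the later step (circles) and the earlier step (squares). Granule lists are above 0 in both steps, the basophil list in the later step, and the B cell list lies below 0 in the later step.

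The cohorts were compared although the labels give no difference in their handling before the interventions. Whether the week 6 blood was drawn before these is not stated. Of 10145 genes 1, Ighg1, passed as deposited (0.00986%, moderated F test by limma, adjusted p = 0.0137), with changes of 2.87 in TKI, 1.78 in TOTO and 0.27 in CML mice, and no gene passed rescaled (Ighg1 adjusted p = 0.215, 1309 genes at an unadjusted p under 0.05). The count was 0 without CML mouse 480 or 542 or TKI mouse 502, 507 or 508, 2 without CML mouse 541 or TOTO mouse 476, 3 without CML mouse 484 and 8 without control mouse 490. It was 6622 as deposited and 201 rescaled without TOTO mouse 545, whose haemoglobin share changed by -24.2 points while that of the other 3 TOTO mice rose. Secondary granule means were 1.27 in TKI, 1.01 in TOTO and 0.70 in CML mice (rescaled).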

How the data were processed

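Whole blood RNA of weekly libraries was ribosomal RNA depleted and reverse stranded, with an RNA integrity number above 4, per the labels. The authors deposited TPM values. STAR, Salmon and GRCm39 are named in the submitters' processing notes, without versions. The deposited values cover 14605 genes, of which 14537 matched GENCODE M39. TPM keeps no depth, so depth is unknown and no counting error is given.

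Each mouse gave 1 difference, week 6 minus week 3 of log2(TPM + 1), which makes the mouse a block. Genes with a mean of at least 1 TPM over both weeks were fitted in R 4.3.3 by limma 3.58.1, using a trended prior, with terms for Tet-off and control mice, and the threshold was 0.05 after Benjamini-Hochberg adjustment. Prior degrees of freedom were 15.7 as deposited and 2.90 rescaled, beside 18 residual ones. Rescaling divided each library by its median ratio over 10282 genes. The fit was tested on simulated data in which genes varied independently. These data held no shift shared by a whole library, so the test does not cover such shifts. Libraries of 1 mouse come from the same animal by their labels: residuals at the 2 weeks correlated at a mean of 0.261 within mice (from -0.517 to 0.659) and -0.057 between mice. The robust prior used statmod 1.5.0. Permutation tests used numpy 2.4.6 under Python 3.11.15, with scipy 1.17.1 for ranks and for the adjustment of the correlations. Tables used pandas 2.3.3, and plots matplotlib 3.10.9.

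The members, the 32 gene lists and the comparisons were chosen with earlier results of these data known. Named genes are the 10 largest rises and 10 largest falls that passed, at a mean of 5 TPM or more and with 80% of Tet-off mice or more on the side of the mean, passing over unnamed models and pseudogenes (6 each way in the other contrasts, or the 6 smallest p where none passed), and the 4 members of each list with the smallest p. Alternatives were another pseudocount, filter, scaling, prior, batch term, slope over weeks 3 to 6, unpaired fit, equal weight for cohorts, and each mouse left out. Promoters came from RefSeq (GRCm38.p6), and expression coordinates of GRCm39 are not mixed with them.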

Additional observations from a re-analysis of the deposited data

Results flagged for a closer look

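In 48 groups (16 genes in 3 cohorts) 7 had a mouse far from the others by Dixon's criterion, which chance meets in about 1 in 20 groups. These are changes as deposited. The transgene changed by 0.864 in TKI mouse 514, against 2.48 to 3.60 in the other TKI mice. Rescaled, it changed by 0.639 in that mouse, against 1.75 to 3.13 in the others. Prss34 was lowest in the same mouse, at 1.06, against 1.74 to 2.25. Upp1, uridine phosphorylase, was at 1.63 in TKI mouse 512, against 2.26 to 2.63. Ngp was at 3.26 in TOTO mouse 545, against -0.176 to 0.313 in the other TOTO mice, and this is also the mouse without which the cohort comparison gave 6622 genes. Rescaled, Ngp rose in every TOTO mouse, by 2.38 in mouse 545 and by 1.07 to 1.58 in the others. Ltf was at -0.946 in CML mouse 484, against 0.517 to 1.32. Rescaled, Ltf rose in all 6 CML mice, from 0.25 to 2.42. Akr1c18 was highest in CML mouse 477 at 0.834, against 0 to 0.296, and Retnla in CML mouse 480 at 1.12, against -0.339 to 0.0922.

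Ighg1 differed between the cohorts by the moderated F test of limma (adjusted p = 0.0137). It was higher at week 6 in 7 of 7 TKI mice, 4 of 4 TOTO mice and 4 of 6 CML mice, and the cohorts were not balanced over batches.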

How the results depend on the processing

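The deposited count of 16 genes was 3920 rescaled, 8 with no replicate block (an unpaired fit of the same libraries), 5 at a mean of at least 5 TPM, 35 as a slope over weeks 3 to 6, 93 without haemoglobin and erythroid genes and 32 with a robust prior. Leaving out 1 mouse gave 11 to 57, with 57 without CML mouse 484, 25 without TOTO mouse 476 and 26 without control mouse 490. The rescaled count of 3920 was 2054 at a mean of at least 5 TPM, where fewer genes are tested, 1982 with no replicate block, and 3480 to 4551 with 1 mouse left out. Without the block the secondary granule list had 8 calls and the B cell list 9, and rescaled Ngp, Camp, Lcn2, S100a8 and S100a9 did not pass. The pairing comes from the animal, and the unpaired fit adds differences between mice to the error.

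The difference from controls gave 0 genes as deposited under each alternative run, and 0 to 92 rescaled with 1 mouse left out. Rescaled changes in controls gave 3 genes with no filter. The later minus earlier count of 2 was 2455 rescaled, 4 with a pseudocount of 0.1, 0 with no filter, 41 with the earlier step from week 0 and 0 to 2 with 1 mouse left out. Its rescaled count of 2455 was 1130 with the earlier step from week 0 and 1745 to 3236 with 1 mouse left out. From week 0 the rescaled differences of Fcer2a and Selp reversed, to 0.35 and -1.63. The cohort comparison gave 0 rescaled, 0 with a pseudocount of 0.1, 0 with no filter and 0 to 6622 with 1 mouse left out, and rescaled 0 to 201. The slope on the transgene gave 0 rescaled and 0 to 9182 with 1 mouse left out. Leaving out control mouse 488, 489 or 490 gave a transgene difference of 1.692, 2.025 and 2.025, past no threshold. With no replicate block the difference was 1.91. The permutation p of that setting (0.00019) compared Tet-off libraries between the weeks without the controls, so it does not test the difference from controls. That difference ran from 1.69 to 2.08 with 1 mouse left out. The causes of these shifts were not tested beyond the construction named.

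The 3 control mice, 2 of them in a batch with 2 Tet-off mice, limit every comparison with controls. Depth is unknown, and the unmatched rows were kept in the fit.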
